A study of Drosophila melanogaster with 6 samples.

Results

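The T-box transcription factors were followed in the leg disc of Drosophila melanogaster, the epithelial sac with attached muscle precursors from which the adult leg forms. The family was taken as the 8 genes bi, H15, mid, Doc1, Doc2, Doc3, org-1 and byn, each found once by its symbol among the 17490 genes of the deposited table. At 0 h after pupae formation (APF), leg discs were dissociated, the GFP+ myoblasts were sorted, and polyadenylated RNA was sequenced in 3 replicates of these and in 3 of the input, the cells of the whole leg disc. Every library came from flies of the genotype R32D05-lexA>lexAopGFP, so the input carried the same transgene. In this line the R32D05 fragment drives lexA, a foreign transcription factor, which switches on GFP, by the methods only in the myoblasts of the disc. The input also contains the myoblasts, and each comparison is therefore between sorted myoblasts and the whole disc that holds them. Nothing in the labels says that replicates came from separate batches of animals, so p-values measure the spread between these libraries only.

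T-box proteins bind DNA through a shared domain, named the T-box, and switch target genes on or off. In the fly leg, Wingless (Wg) and Decapentaplegic (Dpp) are the signals that set ventral and dorsal fate. The paralogues H15 and mid (midline) are ventral genes induced by Wg, and bi (bifid, or optomotor-blind) is a dorsal target of Dpp. The Dorsocross genes Doc1, Doc2 and Doc3 are known from the amnioserosa and the heart, org-1 from muscle identity in the embryo, and byn (brachyenteron, the fly Brachyury) from the hindgut.

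Values are RPKM, that is, reads per kilobase of gene and per 1e6 reads. No counts are in the deposited table. However, RPKM multiplied by summed exon length gave whole numbers of reads once divided by 1 constant per library. Of genes below 100 reads, 97.3% to 98.6% were whole with a tolerance of 0.05 reads. These constants gave totals of 64759698 to 84316462 reads in the myoblast libraries and of 41455133 to 67763262 in the input libraries. In input replicate 1 the reads on matched genes exceeded this total, so the total is not their sum there. Input replicate 1 also stood apart: its log2 values correlated at 0.875 and 0.915 with the other inputs, which correlated at 0.954 with each other, a description across genes and not a test. The sort was checked on marker genes. All 8 myoblast markers tested were higher in myoblasts, at 546% to 905% of the input level. Of 9 disc epithelium markers, 7 were lower, among them Dll, dac, al, Fas3, crb and hh at 0.560% to 4.21% of the input level, and en at 42.8%, whereas bab2 at 140% and shg at 149% did not pass the test. Dll, al, crb and hh reached the limit for testing through their input libraries alone, so they could only be called lower. Over all genes tested 14.8% were called lower and 5.52% higher. The summed RPKM of the 9 epithelium markers lay between 99.9 and 131 in myoblasts and between 253 and 388 in the input, and none of them was at 0 in all myoblast libraries. Markers of other cells that the disc can hold were also lower in myoblasts where they passed the test. This was so for 4 of 5 neuron, 2 of 3 glia, 2 of 2 tendon, 2 of 3 trachea and 1 of 2 hemocyte markers tested, and no fat body marker reached the limit for testing. Among these markers called lower, all but elav reached the limit for testing through their input libraries alone, so they could only be called lower. The part of these other cells in the T-box values was not tested.

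In sorted myoblasts H15, bi and Doc3 were lower than in the whole disc, whereas no change passed the test for mid, Doc1 and Doc2. The myoblasts thus held mid, Doc1, Doc2 and a lower level of bi, and only traces of H15, Doc3 and org-1. Transcripts of byn were listed at 0 in all 6 libraries. Genes were tested with limma on log2(RPKM + 1) when they reached an RPKM of 1 in at least 3 of the 6 libraries, which 6 of the 8 T-box genes did. Calls required a Benjamini-Hochberg adjusted p below 0.05 together with a change of more than 1.5-fold. Of the 6 genes, 3 were called lower and 0 higher, against 14.8% lower and 5.52% higher among all 7533 genes tested (20.4% in either direction). At an unadjusted p under 0.05 in limma, 0 of the 6 were higher and 3 lower, against 11.6% and 19.1% of all genes tested. In these 3 genes every myoblast library lay below every input library, which held for 21.5% of all genes tested, and groups without overlap in either direction made up 37.8%. Doc3 reached the limit for testing through its input libraries alone and H15 mainly through them, so the count of 3 is not evidence of a family-wide direction. A lower value in such bulk samples can mean fewer expressing cells or less RNA per cell, and these cannot be told apart.

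**Figure D1:**
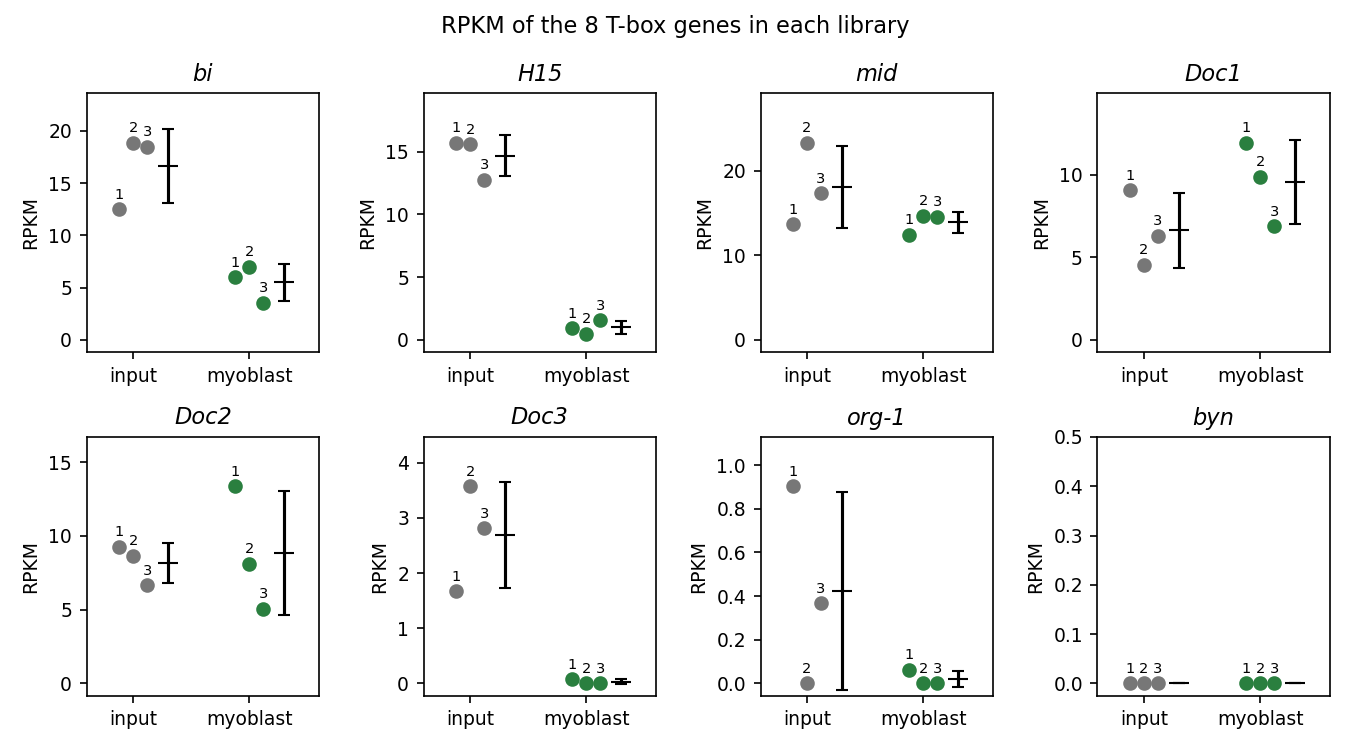
RPKM of each T-box gene in the 3 input (grey) and 3 myoblast (green) libraries, numbered by replicate, with the group mean and SD beside the points (n = 3) and a separate linear axis for each gene. The groups do not overlap for bi, H15 and Doc3, they overlap for mid, Doc1 and Doc2, and byn is at 0 throughout.

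H15 and mid lie side by side on chromosome 2L of dm6, both on the forward strand, with 45045 bases between them. H15 (FBgn0016660) spans 5404280 to 5416593 and mid (FBgn0261963) spans 5461639 to 5467610. RPKM of H15 was 15.7, 15.6 and 12.8 in input replicates 1, 2 and 3, and 0.948, 0.481 and 1.55 in myoblast replicates 1, 2 and 3. The lowest input library was thus far above the highest myoblast library. Myoblasts had a mean of 0.992 ± 0.535 and the input one of 14.7 ± 1.66 (SD, n = 3 each), 14.8 times higher in the input. On the log2(RPKM + 1) scale H15 fell by 3.01 (standard error 0.293, limma, Benjamini-Hochberg adjusted p = 0.000229). An exact permutation test of the 3 against 3 libraries gave p = 0.1 (two-sided), the smallest that 20 arrangements allow. The myoblast values still rest on 262, 133 and 329 reads, so H15 was low but detected. Its myoblast level was 6.76% of the input level, within the 0.560% to 149% spanned by the 9 epithelium markers, of which 6 lay below it and en, bab2 and shg above. A span this wide does not by itself mark a gene within it as epithelial. The part that remaining epithelial cells may have in the level of H15 was not tested.

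The paralogue mid did not pass the test. RPKM of mid was 13.6, 23.3 and 17.3 in input replicates 1, 2 and 3, and 12.5, 14.7 and 14.6 in myoblast replicates 1, 2 and 3. These groups overlap, because input replicate 1 lies between the myoblast libraries. Myoblasts had a mean of 13.9 ± 1.26 and the input one of 18.1 ± 4.87 (SD, n = 3 each), and mid had the highest mean of the family in both. The log2 fold change of -0.33 did not pass the test (standard error 0.246, 95% interval -0.90 to 0.24, limma, Benjamini-Hochberg adjusted p = 0.427; two-sided exact permutation p = 0.3). This interval covers no change as well as a decrease of close to 0.90 on the log2 scale. The mean of mid in myoblasts was 76.8% of its input level, below the range of the 8 myoblast markers (546% to 905%) and within that of the 9 epithelium markers, between en at 42.8% and bab2 at 140%. The epithelium range is wide, as bab2 and shg were not called lower, so a place within it does not mark mid as an epithelial gene.

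In plain RPKM ratios within single libraries, where the scaling between libraries has no part, the pair went from near parity to a strong excess of mid. RPKM of mid divided by that of H15 was 0.868, 1.496 and 1.36 in input replicates 1, 2 and 3, and 13.1, 30.6 and 9.41 in myoblast replicates 1, 2 and 3. The groups did not overlap, and even the lowest myoblast ratio was far above the highest of the inputs. As log2 of the (RPKM + 1) ratio of H15 to mid, the mean was -0.26 in the input (SD 0.39, n = 3) and -2.93 in the myoblast libraries (SD 0.42, n = 3), a difference of -2.68 that is larger than the spread in either group. The exact permutation test gave p = 0.1 (two-sided, the smallest possible, adjusted p = 0.133 over 4 pairs of paralogues). In this tested ratio the added 1 gives scaling a small part. After rescaling to the same sum the difference was -2.70. The 5 genes annotated between H15 and mid, all noncoding, were at 0 in all libraries, and no gene other than the pair within 50 kb reached the limit for testing.

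**Figure D2:**
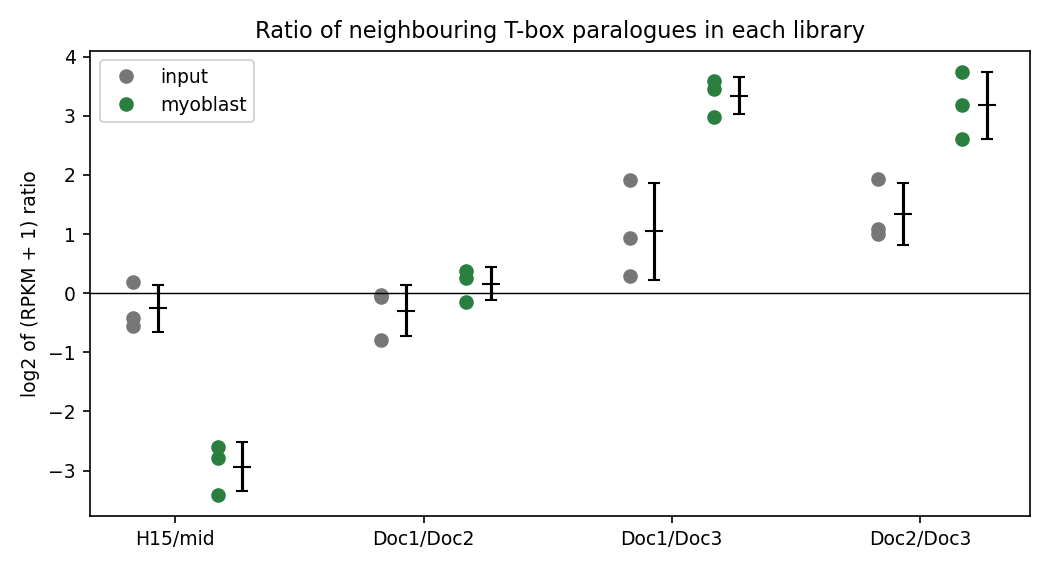
Log2 of the ratio of (RPKM + 1) between neighbouring T-box paralogues in each input (grey) and myoblast (green) library, with the group mean and SD (n = 3). H15/mid falls from -0.26 to -2.93 between input and myoblasts, Doc1/Doc3 and Doc2/Doc3 rise, and the groups overlap for Doc1/Doc2.

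The Dorsocross genes lie together on chromosome 3L of dm6, over 39847 bases. Doc3 (FBgn0035954) spans 9005196 to 9007249 on the forward strand, Doc2 (FBgn0035956) spans 9012686 to 9019246 on the reverse strand and Doc1 (FBgn0028789) spans 9041375 to 9045042 on the forward strand. Doc1 and Doc2 were detected in all 6 libraries. RPKM of Doc1 was 9.07, 4.56 and 6.31 in input replicates 1, 2 and 3, and 11.9, 9.89 and 6.90 in myoblast replicates 1, 2 and 3. The groups overlap, since input replicate 1 exceeded myoblast replicate 3. The log2 fold change of 0.48 did not pass the test (standard error 0.315, 95% interval -0.25 to 1.21, limma, Benjamini-Hochberg adjusted p = 0.361; two-sided exact permutation p = 0.2). Doc1 was the T-box gene with the highest level in myoblasts relative to the input, a ratio of 1.44 between the means.

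RPKM of Doc2 was 9.25, 8.65 and 6.64 in input replicates 1, 2 and 3, and 13.4, 8.12 and 5.07 in myoblast replicates 1, 2 and 3. Myoblast libraries lay both above and below all inputs. Its log2 fold change of 0.02 did not pass the test (standard error 0.345, 95% interval -0.77 to 0.82, limma, Benjamini-Hochberg adjusted p = 0.973; two-sided exact permutation p = 0.9). Among myoblast libraries the spread of Doc2, 47.4% of its mean, was larger than that of Doc1 (26.5%) or mid (9.05%). Myoblast replicate 3 had the lowest values of bi, Doc1 and Doc2 in its group and the highest of H15.

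Doc3 was almost absent from myoblasts. Its RPKM was 1.67, 3.57 and 2.82 in input replicates 1, 2 and 3, and 0.0782 in myoblast replicate 1, while it was listed at 0 in myoblast replicates 2 and 3. The input values rest on 116, 361 and 319 reads and the single myoblast value on 11 reads. No myoblast library came near the lowest input. On the log2(RPKM + 1) scale Doc3 fell by 1.81 (standard error 0.324, limma, Benjamini-Hochberg adjusted p = 0.00529; two-sided exact permutation p = 0.1, the smallest possible). Adding 1 to such low values understates the change, and with a pseudocount of 0.1 it fell by 4.46 (limma, Benjamini-Hochberg adjusted p = 0.00241). Under quantile normalization the call was lost, with a log2 fold change of -0.73 (limma, Benjamini-Hochberg adjusted p = 0.112). At its mean input level Doc3 would have had 378, 379 and 291 reads in myoblast replicates 1, 2 and 3. Among genes for which the other myoblast libraries gave an expectation of 200 to 500 reads, 0 of 460, 0 of 428 and 2 of 491 genes were at 0 in myoblast replicates 1, 2 and 3. A level of 3 reads corresponds to an RPKM of 0.0213 in myoblast replicate 2 and of 0.0277 in replicate 3, a limit for counting error only.

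The cluster therefore held members with different values side by side. RPKM of Doc2 divided by that of Doc3 was 5.53, 2.42 and 2.36 in input replicates 1, 2 and 3 and 171 in myoblast replicate 1, the only myoblast library in which Doc3 was above 0. On the log2(RPKM + 1) scale the Doc2/Doc3 ratio was higher in myoblasts by 1.84 and the Doc1/Doc3 ratio by 2.29, both without overlap between groups (two-sided exact permutation p = 0.1, adjusted p = 0.133 over 4 pairs). For Doc1/Doc2 the difference was 0.46 and the groups overlapped (two-sided exact permutation p = 0.3, adjusted p = 0.3 over 4 pairs). CG5194, which lies between Doc3 and Doc2, reached 0.406 RPKM at its highest. Among all 7533 genes tested, 20.4% were called in either direction. Within 50 kb of the cluster this was so for 3 of the 16 other genes tested. They were Argk1, an arginine kinase gene, with a log2 fold change of 0.93 (adjusted p = 0.0487), GNBP3, a recognition protein of innate immunity, with -5.42 (adjusted p = 1.16e-05), and CG32032 with -1.44 (adjusted p = 0.0264, all by limma and Benjamini-Hochberg). These were chosen as the called neighbours, after their values were seen. The sequence identity of Doc1, Doc2 and Doc3 was not measured here, so it is not known how far reads could be assigned to the wrong copy. No T-box gene shares exon bases with another annotated gene.

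The dorsal gene bi (FBgn0000179) covers 72792 bases of chromosome X of dm6, from 4412856 to 4485647 on the forward strand. Its RPKM was 12.5, 18.9 and 18.5 in input replicates 1, 2 and 3, and 6.01, 7.003 and 3.56 in myoblast replicates 1, 2 and 3. Every input library was above every myoblast library, with input replicate 1 the closest. Myoblasts had a mean of 5.53 ± 1.77 and the input one of 16.6 ± 3.56 (SD, n = 3 each), 3.01 times higher in the input. On the log2(RPKM + 1) scale bi fell by 1.45 (standard error 0.299, limma, Benjamini-Hochberg adjusted p = 0.0106; two-sided exact permutation p = 0.1, the smallest possible). After all libraries had been scaled to an equal sum of RPKM the value was nearly equal, -1.43, but the call was lost (limma, Benjamini-Hochberg adjusted p = 0.0890). The myoblast level of bi was 33.3% of the input, within the 0.560% to 149% spanned by the 9 epithelium markers, of which 6 lay below it and en, bab2 and shg above. As with H15, the span is too wide to mark bi as epithelial. The myoblast level of bi rests on 1406 to 3599 reads in a library. The antisense RNA gene lncRNA:CR32773 spans the bi locus on the opposite strand without sharing exon bases; its highest RPKM was 2.83.

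Both genes below the limit for testing were close to or at 0. For org-1 (FBgn0021767, chromosome X, 8447691 to 8455069, reverse strand) RPKM was 0.904 and 0.367 in input replicates 1 and 3, corresponding to 128 and 85 reads, and 0.0626 in myoblast replicate 1, or 18 reads. It was listed at 0 in input replicate 2 and in myoblast replicates 2 and 3. The inputs thus disagreed among themselves, and the groups overlapped (two-sided exact permutation p = 0.4). Without the filter on low values, the log2 fold change of org-1 was -0.43 (standard error 0.241, adjusted p = 0.330 over 11192 genes from limma with Benjamini-Hochberg adjustment). For byn (FBgn0011723, chromosome 3L, 11927693 to 11935919, forward strand) no read was recovered in any library, where 3 reads would give an RPKM of 0.0134 to 0.0273. In the input libraries between 57.2% and 79.03% of genes predicted by the other inputs to have from 10 to under 50 reads were listed at 0, so a very low level of byn was not detectable.

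**Figure D3:**
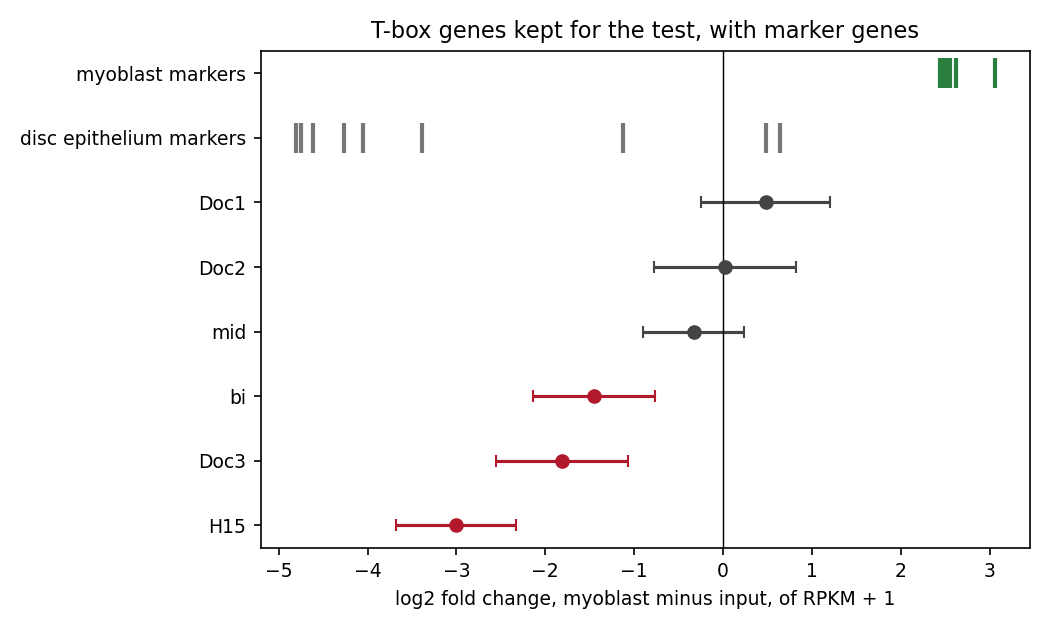
Log2 fold change of RPKM + 1, myoblast minus input, for the 6 T-box genes tested (points with 95% intervals from limma, red where called), with the single values of the disc epithelium and myoblast markers as ticks. On this scale H15 at -3.01 is the lowest T-box gene and Doc1 at 0.48 the highest, and all 8 myoblast markers lie to the right of every T-box gene. With a pseudocount of 0.1 Doc3 is the lower of the 2, at -4.46 against -3.88 for H15.

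Set side by side within each group, the levels gave different orders. In the input, mid (18.1 RPKM on average), bi (16.6) and H15 (14.7) came first and their ranges overlapped. Doc2 (8.18) and Doc1 (6.65) followed, again overlapping with each other and separate from the first 3 genes, and then Doc3 (2.69) and org-1 (0.424), each below the range of the gene before it. In myoblasts mid (13.9) came first, followed by Doc1 (9.58), Doc2 (8.85) and bi (5.53), where the range of Doc2 overlapped those of mid, Doc1 and bi, and the ranges of Doc1 and bi overlapped too. H15 (0.992) lay below all of these, and Doc3 (0.0261) and org-1 (0.0209) below H15. No test was run between genes.

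The summed RPKM of the 8 genes was 62.8 to 74.5 in the input libraries and 31.6 to 44.9 in the myoblast libraries. As a share of this sum, which does not depend on the scaling between libraries, H15 went from 21.9% ± 2.78 to 2.73% ± 1.92 between input and myoblasts (SD, n = 3 each), and bi from 24.6% ± 4.34 to 14.03% ± 3.13. Doc1 made up 10.1% ± 4.18 of the input sum and 24.4% ± 2.42 of the myoblast sum, and Doc2 12.2% ± 2.30 and 22.0% ± 7.06. The share of mid was 26.6% ± 4.77 in the input and 36.8% ± 9.13 in myoblasts, where its range of 27.8% to 46.02% overlapped that of the input (21.7% to 31.3%). Shares of a sum move against each other, so a larger share of Doc1 does not by itself show a higher level.

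**Figure D4:**
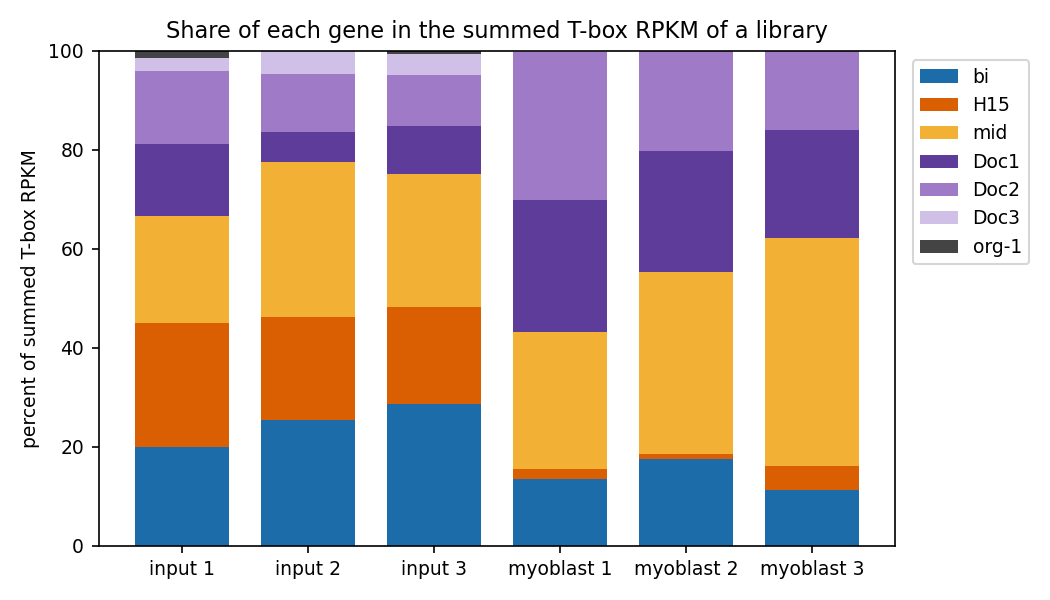
Share of each T-box gene in the summed T-box RPKM of a library (percent, stacked to 100), for input and myoblast replicates. The H15 band shrinks from 19.7% to 25.03% in the inputs to 1.20% to 4.89% in the myoblasts, and Doc1, Doc2 and mid fill most of the myoblast bars.

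The signals that act upstream of these genes in the leg were read in the same libraries. Among 9 genes of the Dpp pathway all were tested, with 2 lower, 0 higher and a median log2 fold change of -0.01, against 0.01 over all genes tested. Of all genes tested 14.8% were called lower and 5.52% higher. The ligand dpp had 5.60 RPKM on average in the input and 0.109 in myoblasts and fell by 2.56 on the log2 scale (limma, Benjamini-Hochberg adjusted p = 0.000520). The receptors tkv, put and sax, the signal transducers Mad and Med, and brk and shn, the repressor of Dpp targets and a cofactor of Mad, did not pass the test. Their log2 fold changes lay between -0.10 for shn and 0.51 for put. The other gene called lower was Dad, an inhibitor of the pathway that is itself a Dpp target. Its RPKM was 8.62 in myoblasts and 23.5 in the input, 36.7% of the input level, and it fell by 1.33 (limma, Benjamini-Hochberg adjusted p = 0.00663). The part of Dpp signalling in the level of bi was not tested.

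Of 12 genes of the Wg pathway 11 were tested, with 3 lower, 1 higher and a median log2 fold change of -0.16. The shares called over all genes tested were 14.8% lower and 5.52% higher. The ligands wg and Wnt6 were lower, with log2 fold changes of -4.25 and -3.52 (limma, Benjamini-Hochberg adjusted p = 2.84e-05 and 0.000195), and wg had 24.7 RPKM in the input and 0.336 in myoblasts. Wnt10 was below the limit for testing, at 0.623 RPKM in the input. The receptor fz2 rose by 1.03, from 60.7 to 124 RPKM (limma, Benjamini-Hochberg adjusted p = 0.00725), while the receptors fz, fz3 and arr and the transducers arm, pan and dsh did not pass the test. Notum, a secreted antagonist and Wg target, fell by 1.18 (limma, Benjamini-Hochberg adjusted p = 0.0257), and nkd, another Wg target and inhibitor, had a log2 fold change of -0.39 that did not pass (limma, Benjamini-Hochberg adjusted p = 0.422). The ligands dpp, wg and Wnt6 reached the limit for testing through their input libraries alone, so they could only be called lower. Of the receptors and transducers in both lists, only fz2 passed the test.

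**Figure D5:**
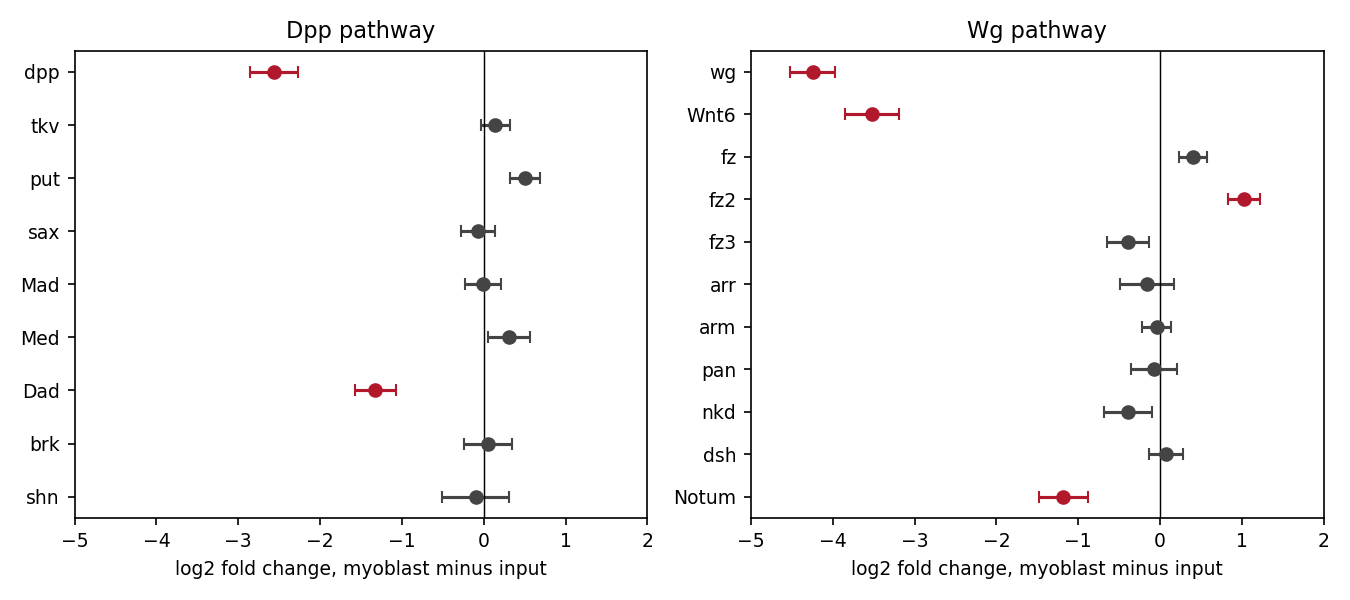
Log2 fold change of RPKM + 1, myoblast minus input, with its standard error, for the tested genes of the Dpp pathway (left) and the Wg pathway (right), red where called. The ligands dpp, wg and Wnt6 lie between -2.56 and -4.25, Dad and Notum at -1.33 and -1.18, and fz2 is the gene called higher, at 1.03.

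Of 11 genes that work with T-box factors in embryonic mesoderm 5 were tested, 2 of them higher and 2 lower. Over all genes tested 5.52% were called higher and 14.8% lower. In myoblasts tin, bap, bin, Hand and tup, regulators of heart and visceral muscle, were listed at 0 in all 3 libraries, and in the input tup reached a mean of 3.44 RPKM. The muscle identity genes lms and slou were higher, with log2 fold changes of 3.57 and 1.88 (limma, Benjamini-Hochberg adjusted p = 0.000230 and 0.0479). The homeobox gene lbl, also of muscle identity, and pnr, a GATA factor of heart and dorsal ectoderm, were lower, at -2.55 and -1.52 (limma, Benjamini-Hochberg adjusted p = 0.000357 and 0.0119), and svp did not pass the test, with 8.64 RPKM on average in myoblasts and 7.05 in the input. The muscle identity gene lbe was below the limit for testing, at 0.906 RPKM in myoblasts and 0.816 in the input. As with Doc3, pnr reached this limit through its input libraries alone, so that it could only be called lower. Of 7 regulators of the embryonic gut that act with byn, 4 were tested and all 4, drm, bowl, otp and fkh, were lower, with log2 fold changes of -4.62, -4.79, -1.87 and -1.67 (limma, Benjamini-Hochberg adjusted p from 1.66e-05 to 0.0133). Of the 4, otp and fkh reached the limit for testing through their input libraries alone, so they could only be called lower. Over all genes tested 14.8% were called lower. Among the 4, drm and bowl are also genes of leg segmentation. fkh is also on the list of salivary gland markers, whose summed RPKM was 1.09 to 356 in the inputs and 0 to 1.86 in myoblasts, and the part of salivary gland cells in its value was not tested. The gut regulator cad was at 0 throughout, as was byn.

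The genes whose profile over the 6 libraries was closest to that of each T-box gene were found by the root mean square difference of log2(RPKM + 1) after each gene's own mean was subtracted. For H15 these were sinu, a claudin of septate junctions, at 0.18, CG34056 at 0.18 and CG6330 at 0.20. For bi they were repo, the glial homeobox gene, at 0.12, CG33116 at 0.13 and CG1544 at 0.14, and for Doc3 dl, the NF-kappaB factor Dorsal, at 0.06 with CG9121 and CG42339 at 0.07. For mid they were CG11138, CG11360 and the protein kinase C gene Pkc98E at 0.06 to 0.07. For Doc1 they were CG7420 at 0.05, CG33506 and the translation factor gene eIF6 at 0.11, and for Doc2 Pex14, CG15432 and grk at 0.18. No other T-box gene was among these, and within the family the smallest differences were those of bi and Doc3 at 0.31 and of Doc1 and Doc2 at 0.38, against 1.38 for H15 and mid. Adding 1 compresses changes at low values, so a small difference on this scale need not mean an equal fold change of RPKM. Mean myoblast levels were 33.3% of the input for bi, 0.969% for Doc3 and 16.3% for repo.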

How the data were processed

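By the methods and the labels, reads were filtered with Cutadapt, aligned to dm6 with HISAT2 2.1.0 and counted with HTSeq 0.11.2, and the authors deposited RPKM values made with Cufflinks. Their own test with DESeq2 1.22.2 needs counts, which were not used here. Whether counting used strand is not given in the sources used here. Positions and exon lengths came from Ensembl release 115 on dm6, another release than that of the authors.

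Values entered as log2(RPKM + 1) with no further scaling. The RPKM summed over all genes was 963726, 481720 and 589908 in input replicates 1, 2 and 3. In the myoblast libraries it was 585415 to 668659. Genes reaching 1 RPKM in 3 or more of the 6 libraries were tested in limma 3.58.1 (R 4.3.3, with an intensity trend) and p-values were adjusted over all 7533 of them after Benjamini and Hochberg. The fit was first checked on simulated data. It recovered 147 of 200 genes given a log2 change of 2 (73.5%) and made 12 false calls, so changes of this size can be missed. Single genes and paralogue ratios were compared over libraries with exact permutation tests of 20 arrangements. Other steps used Python 3.11.15 with pandas 2.3.3.

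The members and gene lists were chosen with earlier results of these data known. Named genes were the 8 members, the genes of the lists and, for each tested member, the 3 closest profiles. Genes between, across or near the members were named after their values were seen. The marker ap was not matched. Alternatives covered the pseudocount, the filter, the scaling (same sum or quantile), the trend, a block for replicate number and each library left out. Limits from reads cover counting error only, since no molecular identifiers mark single molecules.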

Additional observations from a re-analysis of the deposited data

How the results depend on the processing

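H15 was called lower under all 12 alternatives, with a log2 fold change between -3.88 and -2.42 and an adjusted p between 0.000126 and 0.00228 (limma with Benjamini-Hochberg adjustment). bi lost its call when libraries were rescaled to the same sum (-1.43, adjusted p = 0.0890), and Doc3 under quantile normalization (-0.73, adjusted p = 0.112), where the median of all genes shifted to 0.16. These 2 settings left 2 T-box genes called and the other 10 left 3. The sign of Doc2, never called, turned without myoblast replicate 1 (-0.29) and without input replicate 3 (-0.10), and the leave-one-out range was -0.29 to 0.33. mid and Doc1 kept their sign and were called in none of the 12. Leaving out a library moved the calls over all genes from 1534 to between 903 and 2342, with 951, 918 and 903 without myoblast replicates 1, 2 and 3 and 2342 without input replicate 1, and each of these fits still called bi, H15 and Doc3. The adjusted p of bi reached 0.0496 without input replicate 3. Genes higher in myoblasts made up 27.1% of all calls, 16.3% after rescaling to the same sum, 50.4% after quantile normalization and 37.2% without input replicate 1. With the replicate number as a block 1668 genes were called, among them the same 3 T-box genes, and H15 had a log2 fold change of -3.01, bi of -1.45 and Doc3 of -1.81. The deviations of libraries with the same number correlated at 0.345, 0.262 and 0.007 for replicates 1, 2 and 3. For libraries of different number the correlations lay between -0.326 and 0.156, below the values of replicates 1 and 2. A pairing was thus neither shown nor excluded. The main test did not use the numbers as pairs, and the fit with the block did. The 4 paralogue ratios kept their sign in all 8 alternatives run on each. The reads behind Doc3 and org-1 limit what can be said of their levels in myoblasts.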
